A study of Mus musculus with 4 samples.

Results

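The genes examined here encode the translation initiation factors and the proteins that act directly on them, in efferocytic and non-efferocytic mouse bone marrow (BM) macrophages. Members were all genes of the count tables whose symbols begin with Eif1 to Eif6, without pseudogene symbols and without Eif2s3x and Eif2s3y, which gave 54 of 31053 genes. Of these, 51 were detected well enough to be tested, among 13869 genes tested in all. The members fell by symbol into 5 genes of the Eif1 group, 14 of the Eif2 group, 14 of the Eif3 group, 16 of the Eif4 group, 4 of the Eif5 group and Eif6. The symbol Eif2c5 met the rule only by its letters, since Eif2c was an older name for argonaute genes, and it is annotated as a long non-coding RNA.

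BM macrophages were grown from C57BL/6J mice, which the methods describe as male and 4 to 6 weeks old. Efferocytic macrophages had been cultured for 16 to 18 h with apoptotic RM1 cells, a mouse prostate cancer line transformed by Ras and Myc and killed by UV light, and were sorted as F4/80+CFSE+ cells, CFSE being the dye loaded into the RM1 cells. Non-efferocytic macrophages were sorted as F4/80+ cells. Each of 2 experiments gave 1 library of each group, so that n = 2 libraries per group, and the groups differed in engulfment. The labels give a culture time with apoptotic cells for the efferocytic libraries only. The paper describes the controls both as non-engulfing macrophages and as macrophages alone. Whether the non-efferocytic macrophages had met apoptotic cells is therefore not settled. No genetic alteration was described for the macrophages of either group.

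Translation of most mRNAs begins when the cap-binding complex eIF4F, made of the cap-binding protein eIF4E, the helicase eIF4A and the scaffold eIF4G, brings the mRNA to the small ribosomal subunit. That subunit already carries eIF1, eIF1A, the large scaffold eIF3 and eIF2, which delivers the initiator tRNA, and it scans to the start codon, where eIF5 and eIF5B promote joining of the large subunit. Cells restrain this process in a pair of well known ways, through 4E-binding proteins that hold eIF4E away from eIF4G and through kinases that phosphorylate eIF2α in stress. In macrophages, as in other cells, mRNA levels of these factors are a separate quantity from the activity of the proteins, which was not measured here.

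Levels are given as CPM, the UMIs (unique molecular identifiers, each standing for a captured mRNA molecule) of a gene scaled to 1000000 UMIs in the cells of a library. The 3′ kit counts molecules at their 3′ ends, so CPM was compared between genes without division by gene length. The cells of the libraries, in number between 6695 and 13411, held between 101216659 and 155224183 UMIs. Median UMIs per cell were 11146 and 9600 in the non-efferocytic libraries and 17171 and 17475.5 in the efferocytic libraries of Experiments 1 and 2. Efferocytic cells therefore carried more UMIs in both experiments, and more RNA per cell and more capture per cell cannot be told apart. All 8 macrophage markers were detected in every library, and their summed level was 34960 and 30170 CPM without and 28310 and 21080 CPM with efferocytosis (Experiments 1 and 2). Lyz2 made up most of this sum, at 32090 and 27530 CPM without and 25870 and 18670 CPM with efferocytosis. Cd68 went the other way, at 964 and 987 CPM without and 1333 and 1477 CPM with efferocytosis, and the rest of the list was lower. The 8 neutrophil markers had a sum of 3040 and 3335 CPM in non-efferocytic against 950 and 705 CPM in efferocytic cells, so this list moved with the groups. Background was highest in the second non-efferocytic library, with 36048 barcodes from 500 to under 1000 UMIs against 1048 to 2046 in the others, and a UMI of a neutrophil marker in 47.8% of its cells against 18.3% to 24.9%. Without this library 0 members passed, in a fit without the block that called 0 of all genes (edgeR; 12 members at an unadjusted p under 0.05), and with 10% of UMIs removed as free RNA 9 members rose and 1 fell, beside 9.98% and 7.65% of all genes. The part of this background in the initiation factor results was not tested further. The 5 fibroblast markers were also lower, at 144 and 120 CPM against 45.7 and 51.6 CPM, and the part of either list in the initiation factor results is given below from cells without their UMIs. The 8 epithelial and tumor cell markers summed to 0.188 and 9.80 CPM in the former and 0.0960 and 8.45 CPM in the latter, with Krt5 at 0 in all 4. The study lists RM1 as a fibroblast-like line, so these epithelial genes need not mark RM1 cells. Both libraries of Experiment 1 held 0 UMIs of the Y-linked genes Ddx3y, Kdm5d and Uty and 457 and 393 CPM of Xist, whereas those of Experiment 2 held all 3 Y-linked genes and under 1 CPM of Xist, so the experiments differed in the sex of the cells while the groups within an experiment did not. The 2 libraries of Experiment 2 shared 118 cell barcodes (0.880% of the non-efferocytic and 1.40% of the efferocytic cells) and the other library pairs 14 to 23.

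Counts were summed per library and the groups were compared across all genes, with the experiment as a block (edgeR quasi-likelihood test, trimmed mean of M values (TMM) scaling, Benjamini-Hochberg adjustment, threshold 0.05). Of the 51 initiation factor genes tested, 15 rose, 3 fell and 33 did not pass the test. The genes that rose were Eif1a, Eif1ax, Eif1b, Eif2s1, Eif2b5, Eif3a, Eif3b, Eif3j1, Eif4a1, Eif4a3, Eif4e, Eif4g1, Eif4g2, Eif5a and Eif6, and those that fell were Eif2a, Eif2ak1 and Eif4ebp2. Members that rose made up 29.4% of those tested, beside 19.9% of all genes tested, and members that fell 5.88%, beside 19.0% of all genes. Most initiation factors are abundant, and among the 7097 genes that averaged 10 CPM or more 29.9% rose and 14.5% fell, so the share of members that rose was close to that of other abundant genes. DESeq2 gave 12 members that rose and 2 that fell, beside 14.2% and 10.2% of all genes. The median log2 fold change of the members was 0.12, beside -0.018 over all genes tested and 0.092 over the abundant genes. The sex-linked genes show that the experiments did not use the same mice, and the number of mice behind a library is not given in the labels. The block takes out the spread between the experiments. The p-values of these 4 libraries therefore measure how alike the differences within the 2 experiments were, with a spread partly borrowed from other genes.

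**Figure D1:**
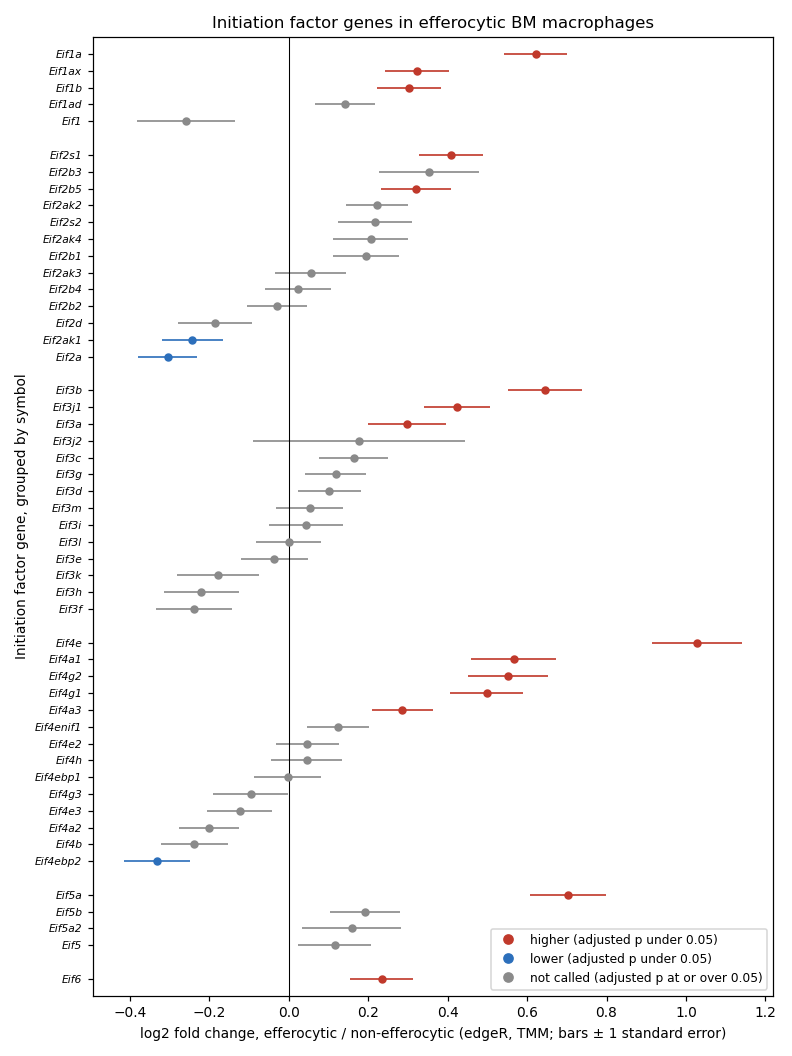
Log2 fold change (x axis, efferocytic over non-efferocytic, TMM scaling) of the 51 initiation factor genes tested, ordered within their symbol groups (y axis), with bars of ± 1 standard error. Red points mark the 15 genes that rose, blue points the 3 that fell and grey points the 33 that did not pass the test, and Eif4e lies farthest to the right at 1.03.

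The split between genes that rose and fell depended on the scale. Scaled to library totals in place of TMM, 9 members rose and 9 fell (edgeR, adjusted p under 0.05), where 13.3% of all genes rose and 26.7% fell, and the median over all genes moved by -0.11. Eif1a, Eif2s1, Eif3b, Eif3j1, Eif4a1, Eif4e, Eif4g1, Eif4g2 and Eif5a were the 9 that rose on this scale, and Eif1, Eif2a, Eif2ak1, Eif3f, Eif3h, Eif3k, Eif4a2, Eif4b and Eif4ebp2 the 9 that fell. Counted as UMIs per cell, which includes the larger number of UMIs in efferocytic cells, 40 members rose and 0 fell (edgeR; at an unadjusted p under 0.05, 44 rose and 0 fell), where 49.9% of all genes rose and 4.23% fell. The 3 members that fell under TMM had positive values on that scale, at 0.31 for Eif2a, 0.38 for Eif2ak1 and 0.29 for Eif4ebp2. The split also moved under TMM when genes of at least 10 CPM alone were entered. Of 46 members in that fit, 9 rose and 8 fell (edgeR, adjusted p under 0.05), with a median of 0.021. Of all genes in it, 20.8% rose and 21.9% fell. Directions below are relative to the bulk of the genes of a library, as TMM sets it over all genes tested, unless another scale is named.

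The 8 genes Eif1a, Eif3b, Eif3j1, Eif4a1, Eif4e, Eif4g1, Eif4g2 and Eif5a passed the test in the same direction under all 16 alternatives that kept the 4 libraries. Fits with a library left out did not keep all of these calls. The 8 genes are described first among their groups, starting with the cap-binding complex.

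Eif4e, which encodes the protein that binds the mRNA cap, had the largest change of the family. Its level was 39.5 CPM in the non-efferocytic and 61.5 CPM in the efferocytic library of Experiment 1, and 39.8 and 91.4 CPM in Experiment 2. Both efferocytic libraries lay above both non-efferocytic libraries, which were nearly alike, while the efferocytic libraries differed from each other. Eif4e rose by 1.03 ± 0.11 (log2 fold change ± standard error, 2.04-fold; edgeR, adjusted p = 0.000519). The log2 ratio within an experiment was 0.64 (95% exact interval of counting error 0.58 to 0.70) in Experiment 1 and 1.20 (1.15 to 1.24) in Experiment 2. In UMIs per cell Eif4e went from 0.482 to 1.15 in Experiment 1 and from 0.411 to 1.69 in Experiment 2. Of the 31-base words in the last 500 bases of its transcripts, 31.1% also occurred in other annotated transcripts, among them those of Gm7327. Such words alone do not tell the genes apart, and how reads there were counted was not tested.

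Eif4a1 and Eif4g1, which encode further eIF4F subunits, rose as well, while their relatives Eif4a2 and Eif4g3 did not pass the test. Eif4a1, the main eIF4A helicase gene and after Eif1 the most abundant member, was at 476 and 615 CPM (non-efferocytic and efferocytic) in Experiment 1 and at 524 and 766 CPM in Experiment 2. The groups did not overlap, and the log2 fold change was 0.57 ± 0.11 (edgeR, adjusted p = 0.00508). The scaffold gene Eif4g1 was at 84.5 and 98.8 CPM in Experiment 1 and at 86.9 and 128 CPM in Experiment 2, again without overlap, and rose by 0.50 ± 0.092 (edgeR, adjusted p = 0.00438). Of the 5 genes for eIF4E, eIF4A and eIF4G (Eif4a1, Eif4a2, Eif4e, Eif4g1 and Eif4g3), 3 thus rose and 0 fell, with a median of 0.50 (edgeR; also 3 and 0 by DESeq2 and as UMIs per cell, 3 and 1 at an unadjusted p under 0.05, and 3 and 1 on library totals, where Eif4a2 fell by 0.31 on the log2 scale, edgeR adjusted p = 0.0133). The shares over all genes that rose and fell were 19.9% and 19.0% under TMM and 14.2% and 10.2% by DESeq2. On library totals they were 13.3% and 26.7%. As UMIs per cell they were 49.9% and 4.23%, so 3 of 5 was near the share of all genes on that scale. The summed level of the 5 genes went from 727 to 873 CPM in Experiment 1 and from 758 to 1083 CPM in Experiment 2.

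Of the remaining scaffold and cap-binding genes, Eif4g2 rose and the others tested did not pass. Eif4g2, whose product resembles the eIF4G scaffold but lacks the part that binds eIF4E, was at 282 and 351 CPM in Experiment 1 and 280 and 417 CPM in Experiment 2. It rose by 0.55 ± 0.10 (edgeR, adjusted p = 0.00439) with no overlap between the groups. The third scaffold gene, Eif4g3, was at 49.7 and 37.3 CPM in Experiment 1 and at 45.6 and 45.7 CPM in Experiment 2, so its ratio was negative in the first and near 0 in the second, and it did not pass the test (-0.096 ± 0.095, edgeR adjusted p = 0.446). Eif4e2, which encodes a cap-binding protein that acts in repression, was at 86.5 and 82.4 CPM in Experiment 1 and 90.8 and 87.7 CPM in Experiment 2. Eif4e3, a further eIF4E relative, was at 21.4 and 17.0 CPM and at 19.7 and 18.0 CPM. Neither passed the test, with log2 fold changes of 0.046 ± 0.079 (edgeR, adjusted p = 0.668) and -0.12 ± 0.082 (edgeR, adjusted p = 0.259). Eif4e1b, the oocyte form, had 0 UMIs in all libraries, where 3 counts would be between 0.0193 and 0.0296 CPM.

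The 4E-binding proteins compete with the scaffold for eIF4E. Eif4ebp2 was at 107 and 80.7 CPM in Experiment 1 and at 101 and 72.5 CPM in Experiment 2. Both efferocytic libraries lay below both non-efferocytic libraries, and Eif4ebp2 fell by 0.33 on the log2 scale (standard error 0.084; edgeR, adjusted p = 0.0162). It passed under 12 of the 16 alternatives and not without the replicate block (edgeR, adjusted p = 0.0871) or in cells of 10000 to 20000 UMIs, where its value was -0.21 (edgeR, adjusted p = 0.107). Eif4ebp1 was at 120 and 112 CPM in Experiment 1 and at 139 and 128 CPM in Experiment 2, with overlapping groups and a log2 fold change of -0.0022 ± 0.084 (edgeR, adjusted p = 0.986). Eif4ebp3 was under 0.04 CPM in every library and was not tested.

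**Figure D2:**
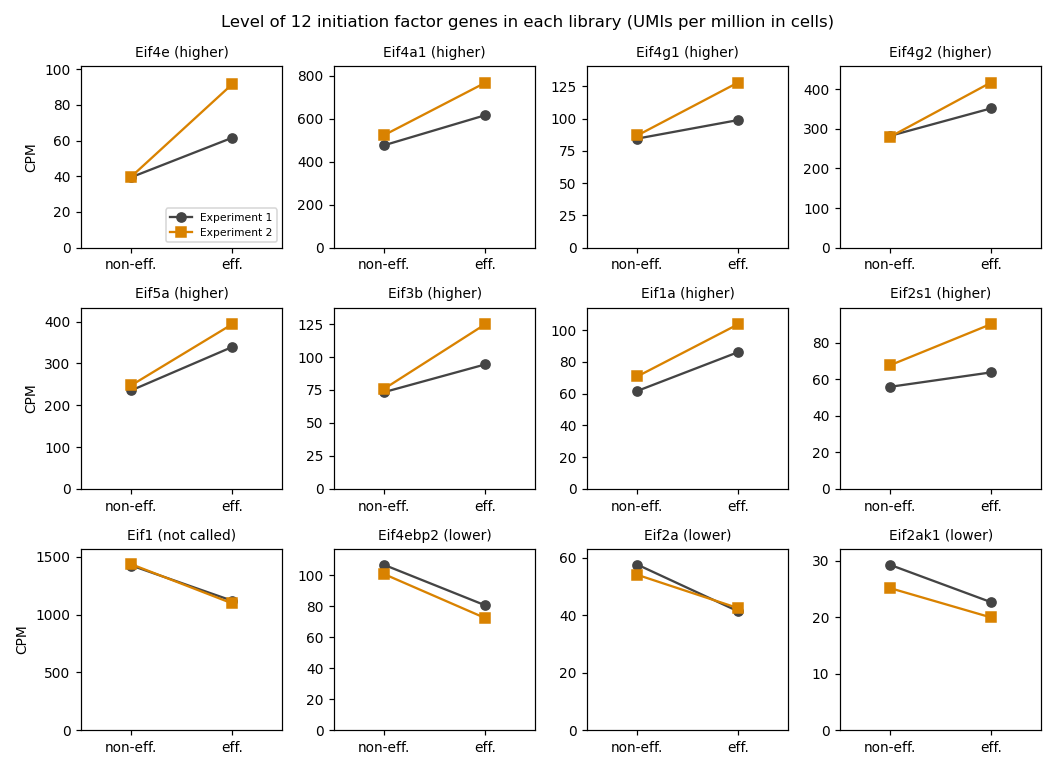
Level (CPM, y axes from 0) of 12 initiation factor genes in the non-efferocytic (non-eff.) and efferocytic (eff.) library of each experiment, with a line joining the libraries of 1 experiment. The non-efferocytic libraries of Eif4e lie together near 40 CPM and its efferocytic libraries at 61.5 and 91.4 CPM, and Eif1 and Eif4ebp2 are lower in both efferocytic libraries.

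The genes for the helicase partners and relatives made up the rest of the Eif4 group. Eif4a3, which encodes a helicase of the exon junction complex rather than of eIF4F, was at 44.8 and 47.3 CPM in Experiment 1 and 44.3 and 53.6 CPM in Experiment 2 and rose by 0.29 ± 0.076 (edgeR, adjusted p = 0.0204). It passed the test under 9 of the 16 alternatives, not without the replicate block (edgeR, adjusted p = 0.0543) or in cells of 10000 to 20000 UMIs, where its value was 0.088 (edgeR, adjusted p = 0.451). Of its 3′ end words 50.2% were shared with other genes. Eif4a2, the relative of Eif4a1, was at 76.9 and 59.9 CPM and at 62.0 and 52.0 CPM, and Eif4b, a helicase cofactor, at 139 and 103 CPM and at 132 and 110 CPM. Both were lower in each efferocytic library than in either non-efferocytic library, and neither passed the test under TMM, with -0.20 ± 0.075 (edgeR, adjusted p = 0.0672) and -0.24 ± 0.084 (edgeR, adjusted p = 0.0551). Eif4h, the other cofactor, went from 103 to 88.4 CPM in Experiment 1 and from 90.4 to 96.7 CPM in Experiment 2. Eif4enif1, which encodes the eIF4E transporter, was at 20.9 and 20.4 CPM and at 22.3 and 23.4 CPM. Of the 14 tested genes of the Eif4 group, 5 rose and 1 fell, with a median log2 fold change of 0.046. On library totals 4 rose and 3 fell (Eif4a2, Eif4b and Eif4ebp2), and as UMIs per cell 9 rose and 0 fell. The shares over all genes were 19.9% and 19.0% under TMM, 13.3% and 26.7% on library totals, and 49.9% and 4.23% as UMIs per cell.

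RefSeq promoter windows (250 bases before to 50 after an annotated start, GRCm38.p6) were searched for the E-box CACGTG, a palindrome and hence the same on both strands, which is the DNA word bound by Myc, Usf, Mitf and Tfe family factors among others. The word was present in 7.15% of all windows, for 8.09% of genes with a window and 11.5% of such genes that were tested. Of the members, 42 had a window and 10 of them held the word. These were 6 of the 12 members with a window that rose, 0 of the 3 that fell and 4 of the 26 that did not pass the test. The share among all genes that rose was not counted, and the split was not tested. Genes differed in their number of windows, and Eif5a had 6, of which 3 held the word. Eif1b, Eif3a, Eif4a1, Eif4e, Eif4g1 and Eif5a rose and held the word. Eif1ax, Eif2b5, Eif2s1, Eif3b, Eif3j1 and Eif4a3 also rose, and their windows did not hold it. It was absent as well from the windows of Eif4a2 and Eif4g3, which did not pass the test. Sequences are shown for Eif4a1, Eif4e, Eif4g1 and Eif5a, of which Eif4e and Eif5a held the word at more than 1 place. Each line gives 30 bases in the direction of transcription, with the E-box in capitals.
Eif4e, first site: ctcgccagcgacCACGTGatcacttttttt
Eif4e, further site: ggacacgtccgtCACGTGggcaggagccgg
Eif4a1: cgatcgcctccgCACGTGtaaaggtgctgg
Eif4g1: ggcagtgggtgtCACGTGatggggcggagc
Eif5a, first site: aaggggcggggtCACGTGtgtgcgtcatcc
Eif5a, further site: gcgctgcgcggcCACGTGaggtgggggagg

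The Eif4e sites were at chr3:138527028-138527057 and chr3:138527192-138527221 on the plus strand, and their E-boxes began 228 and 64 bases before a RefSeq start. The GENCODE annotation has a longer Eif4e gene (chr3:138526179-138559696), of which both sites lie in an exon. The Eif4a1 site at chr11:69672595-69672624 on the minus strand began 189 bases before the RefSeq start and lay outside the GENCODE gene (chr11:69666936-69672423). The Eif4g1 site at chr16:20672661-20672690 on the plus strand began 54 bases before a start and lay in an intron of the GENCODE gene (chr16:20668313-20692884). The Eif5a sites were at chr11:69921443-69921472, in an intron, and chr11:69920791-69920820, in an exon, on the minus strand, 74 and 178 bases before separate starts of the gene (chr11:69916714-69921958).

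The word was also present before genes that did not pass the test, namely Eif3f, Eif3k, Eif4h and Eif5a2, of which the eIF3 subunit genes are shown.
Eif3k: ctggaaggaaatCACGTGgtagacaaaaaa
Eif3f: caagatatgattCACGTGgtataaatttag
These sites were at chr7:28981915-28981944 on the minus strand and chr7:108934335-108934364 on the plus strand, 44 and 68 bases before the starts, and both lay outside the GENCODE genes. Eif3k was at 337 and 290.2 CPM in Experiment 1 and at 371 and 290.1 CPM in Experiment 2, and Eif3f at 346 and 270 CPM and at 350 and 278 CPM. Levels of both were lower in the efferocytic libraries, while Eif4h and Eif5a2 had ratios of opposite sign in the experiments. Binding of any factor to these sequences was not measured.

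The Eif1 group holds the small factors that keep the scanning ribosome open and select the start codon. Eif1, the most abundant member, was at 1425 and 1121 CPM in Experiment 1 and at 1436 and 1098 CPM in Experiment 2. Both efferocytic libraries lay below both non-efferocytic libraries, yet Eif1 did not pass the test under TMM (-0.26 ± 0.12, edgeR adjusted p = 0.129). It passed on library totals, with -0.37 (edgeR, adjusted p = 0.00375), and in cells of 10000 to 20000 UMIs, with -0.45 (edgeR, adjusted p = 0.0215). In UMIs per cell its value was 0.36, so its direction turned with the scale. Of its 3′ end words 26.1% were shared with other genes.

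The genes encoding eIF1A moved the other way. Eif1a was at 61.7 and 86.0 CPM in Experiment 1 and at 70.8 and 104 CPM in Experiment 2 and rose by 0.62 ± 0.078 (edgeR, adjusted p = 0.000897), with no overlap of the groups. Eif1ax, the X-linked gene for the same factor, was at 74.0 and 86.5 CPM in Experiment 1 and at 93.0 and 107 CPM in Experiment 2 and rose by 0.32 ± 0.081 (edgeR, adjusted p = 0.0161). The groups of Eif1ax overlapped, since the non-efferocytic library of Experiment 2 lay above the efferocytic library of Experiment 1, and the efferocytic library was higher within each experiment. Eif1b, a close relative of Eif1, was at 83.9 and 92.9 CPM and at 92.5 and 110 CPM and rose by 0.30 ± 0.080 (edgeR, adjusted p = 0.0195). Eif1ax and Eif1b each passed under 11 of the 16 alternatives and not in cells of 10000 to 20000 UMIs, where their values were 0.10 and 0.13 (edgeR, adjusted p = 0.425 and 0.277). Eif1ad, a nuclear protein with an eIF1A domain, was at 26.9 and 26.5 CPM and at 30.5 and 32.4 CPM and did not pass. In all, 3 of 5 genes of the group rose and 0 fell (edgeR; also 3 and 0 at an unadjusted p under 0.05 and by DESeq2), with a median of 0.30. The count rests on the scale, since on library totals Eif1a alone rose and Eif1 fell, and as UMIs per cell all 5 rose. The shares over all genes that rose and fell were 19.9% and 19.0% under TMM and 14.2% and 10.2% by DESeq2. On library totals they were 13.3% and 26.7%, and as UMIs per cell 49.9% and 4.23%.

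The summed level of the Eif1 group was nonetheless lower in efferocytic libraries, at 1672 and 1413 CPM in Experiment 1 and 1723 and 1451 CPM in Experiment 2. Eif1 made up most of that sum, so the group's total followed the 1 gene whose level was lower and not the 3 genes that rose.

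The Eif2 group holds the factor that brings the initiator tRNA, its exchange factor eIF2B and the kinases that shut eIF2 down. Eif2s1, which encodes eIF2α, the subunit that is phosphorylated, was at 55.9 and 63.8 CPM in Experiment 1 and at 67.8 and 90.2 CPM in Experiment 2. It rose by 0.41 ± 0.081 (edgeR, adjusted p = 0.00587), with the efferocytic library higher within each experiment and groups that overlapped across experiments. It did not pass in cells of 10000 to 20000 UMIs (0.14, edgeR adjusted p = 0.248) or without the replicate block (edgeR, adjusted p = 0.143). Eif2s2, for the β subunit, was at 234 and 236 CPM and at 222 and 256 CPM and did not pass (0.22 ± 0.094, edgeR adjusted p = 0.101). The γ subunit genes Eif2s3x and Eif2s3y were outside the rule.

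Of the 5 eIF2B subunit genes, which recharge eIF2 with GTP, Eif2b5 alone rose and 0 fell (edgeR; at an unadjusted p under 0.05 3 and 0, and by DESeq2 0 and 0), where 19.9% of all genes rose and 19.0% fell. On library totals the counts were 0 and 0. As UMIs per cell they were 4 and 0, where 49.9% of all genes rose and 4.23% fell. Eif2b5, for the catalytic ε subunit, was at 22.4 and 23.2 CPM in Experiment 1 and at 21.0 and 27.2 CPM in Experiment 2, with a log2 fold change of 0.32 ± 0.088 (edgeR, adjusted p = 0.0232). It passed under 10 of the 16 alternatives, not without the replicate block (edgeR, adjusted p = 0.0787). The log2 ratio of CPM was 0.37 in Experiment 2 and 0.052 in Experiment 1. Eif2b3, for the γ subunit, had the same pattern at 7.02 and 6.97 CPM and 7.33 and 10.3 CPM and did not pass (0.35 ± 0.13, edgeR adjusted p = 0.0560). Eif2b1, Eif2b2 and Eif2b4 had log2 fold changes from -0.030 to 0.19 and did not pass.

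The eIF2α kinases were all low to moderate in level, and 0 of 4 rose while 1 fell (edgeR; 1 and 1 at an unadjusted p under 0.05, and 0 and 0 by DESeq2), where 19.9% of all genes rose and 19.0% fell. On library totals the counts were 0 and 1. As UMIs per cell they were 3 and 0, where 49.9% of all genes rose and 4.23% fell. Eif2ak1 (HRI), the heme-regulated kinase, was at 29.3 and 22.7 CPM in Experiment 1 and at 25.2 and 20.0 CPM in Experiment 2 and fell by 0.24 on the log2 scale (standard error 0.077; edgeR, adjusted p = 0.0388). Its groups did not overlap, and it passed under 11 of the 16 alternatives, not without the replicate block (edgeR, adjusted p = 0.235). Eif2ak2 (PKR), activated by double-stranded RNA, was at 27.8 and 28.1 CPM and at 22.1 and 25.6 CPM (0.22 ± 0.079, edgeR adjusted p = 0.0556). Eif2ak3 (PERK), the kinase of the endoplasmic reticulum, was at 11.96 and 11.7 CPM and at 12.2 and 11.6 CPM (0.055 ± 0.090, edgeR adjusted p = 0.653), with libraries that hardly differed. Eif2ak4 (GCN2), activated by uncharged tRNA, was at 8.80 and 9.18 CPM and at 9.24 and 10.2 CPM (0.21 ± 0.095, edgeR adjusted p = 0.120).

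Eif2a and Eif2d encode proteins that can deliver tRNA to the ribosome without eIF2. Eif2a was at 57.6 and 41.4 CPM in Experiment 1 and at 54.1 and 42.5 CPM in Experiment 2, without overlap, and fell by 0.30 on the log2 scale (standard error 0.074; edgeR, adjusted p = 0.0138). It passed under 14 of the 16 alternatives. Eif2d was at 11.6 and 9.24 CPM and at 10.2 and 8.57 CPM, also lower in both efferocytic libraries, and did not pass (-0.19 ± 0.093, edgeR adjusted p = 0.147). Over the 13 tested genes of the Eif2 group, 2 rose and 2 fell, with a median of 0.19, and on library totals 1 rose and 2 fell. The shares over all genes were 19.9% and 19.0% under TMM and 13.3% and 26.7% on library totals. Eif2c5 had 0 UMIs in both non-efferocytic libraries and under 0.03 CPM in the efferocytic libraries and was not tested.

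eIF3 is the largest initiation factor, a complex built on a core of 8 subunits, the octamer (Eif3a, Eif3c, Eif3e, Eif3f, Eif3h, Eif3k, Eif3l and Eif3m), to which the other subunits attach. Eif3b, a subunit outside the octamer and part of the module with Eif3g and Eif3i, had the largest change of the group. It was at 73.4 and 94.3 CPM in Experiment 1 and at 76.0 and 125 CPM in Experiment 2 and rose by 0.65 ± 0.093 (edgeR, adjusted p = 0.00161). The efferocytic libraries lay above both non-efferocytic libraries. Its module partners were nearly level, Eif3g at 71.6 and 70.1 CPM and at 75.8 and 78.7 CPM, and Eif3i at 163 and 162 CPM and at 181 and 167 CPM, and did not pass (0.12 ± 0.077 and 0.043 ± 0.092; edgeR, adjusted p = 0.254 and 0.732).

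Eif3j1, for a loosely bound subunit, was at 52.4 and 59.5 CPM in Experiment 1 and at 52.8 and 72.1 CPM in Experiment 2 and rose by 0.42 ± 0.082 (edgeR, adjusted p = 0.00544). Eif3j2, a near copy with 93.4% of its 3′ end words in Eif3j1, was under 1 CPM in every library, and its values are uncertain for that reason. Eif3a, the octamer's largest subunit, was at 241.4 and 252 CPM in Experiment 1 and at 241.1 and 301 CPM in Experiment 2. It rose by 0.30 ± 0.098 (edgeR, adjusted p = 0.0434) and passed under 7 of the 16 alternatives. No other octamer gene passed.

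The octamer genes therefore spread around 0, with 1 of 8 that rose, 0 that fell and a median of -0.018, while the 6 other eIF3 genes had 2 that rose, 0 that fell and a median of 0.15. The shares over all genes were 19.9% and 19.0%. At an unadjusted p under 0.05 (edgeR) the octamer had 1 that was higher and 2 that were lower, the other eIF3 genes 2 and 0, and DESeq2 gave the same adjusted counts for both sets. On library totals 0 octamer genes rose and 3 fell, and of the other eIF3 genes 2 rose and 0 fell, where 13.3% of all genes rose and 26.7% fell. As UMIs per cell 6 of the 8 octamer genes and 6 of the 6 others rose and 0 fell, where 49.9% of all genes rose. The difference between the sets was not tested. Eif3f, Eif3h and Eif3k, all octamer genes of over 200 CPM, were lower in each efferocytic library than in either non-efferocytic library, with log2 fold changes of -0.24, -0.22 and -0.18 (edgeR, adjusted p = 0.0825, 0.0981 and 0.203). All 3 passed as lower in cells of 10000 to 20000 UMIs and on library totals. Eif3h was at 265 and 214 CPM and at 287 and 226 CPM, and 32.3% of its 3′ end words were shared with other genes. Eif3c, Eif3e, Eif3l and Eif3m had log2 fold changes from -0.036 to 0.16 and did not pass, nor did Eif3d, for a subunit that can bind the cap, at 80.7 and 75.8 CPM and at 84.3 and 89.2 CPM. Eif3m and Eif3e shared 60.7% and 40.4% of their 3′ end words with other genes, which for Eif3e were pseudogenes. The median over the 14 genes of the group was 0.078.

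The Eif5 and Eif6 genes act late in initiation or beyond it. Eif5a encodes a hypusine-bearing protein that keeps the ribosome moving during elongation and termination. It was at 236 and 339 CPM in Experiment 1 and at 248 and 393 CPM in Experiment 2, without overlap, and rose by 0.70 ± 0.096 (1.63-fold; edgeR, adjusted p = 0.00127). After Eif4e this was the largest change of the family, and 16.1% of its 3′ end words were shared with other genes, among them a processed copy. Its relative Eif5a2 was under 4 CPM in every library and did not pass (0.16 ± 0.12, edgeR adjusted p = 0.342).

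Eif5, for the GTPase-activating partner of eIF2, was at 184 and 169 CPM in Experiment 1 and at 179 and 196 CPM in Experiment 2, and Eif5b, for the subunit-joining GTPase, at 167 and 170.2 CPM and at 178 and 196 CPM. Neither passed, with 0.12 ± 0.093 (edgeR, adjusted p = 0.351) and 0.19 ± 0.087 (edgeR, adjusted p = 0.116). Eif6, whose product keeps free large subunits from joining, was at 80.9 and 85.0 CPM and at 94.3 and 107 CPM. It rose by 0.23 ± 0.080 (edgeR, adjusted p = 0.0490), just inside the threshold, and passed under 4 of the 16 alternatives. The value in cells of 10000 to 20000 UMIs was 0.037 (edgeR, adjusted p = 0.781).

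As sums over genes, the family took up nearly the same share of the library in both groups. The summed level of all members was 6691 CPM in the non-efferocytic and 6451 CPM in the efferocytic library of Experiment 1, and 6874 and 7170 CPM in Experiment 2, so the direction differed between experiments. That difference in direction rested on Eif1. Without Eif1 the sum was 5266 and 5330 CPM in Experiment 1 and 5438 and 6072 CPM in Experiment 2, higher in both efferocytic libraries. The Eif3 genes had the largest sum, at 2168 and 1984 CPM in Experiment 1 and 2253 and 2165 CPM in Experiment 2. The Eif4 genes summed to 1652 and 1776 CPM and to 1677 and 2090 CPM, and the Eif5 genes to 589.5 and 682 CPM and to 608.5 and 789.7 CPM. The sums of the Eif4 and Eif5 groups were thus above the non-efferocytic values in both experiments, and those of the Eif1 and Eif3 groups below. The median log2 ratio of CPM of the tested Eif4 genes was -0.086 in Experiment 1 and 0.035 in Experiment 2. For the Eif5 genes it was -0.00097 and 0.14. In Experiment 1 the higher sums therefore followed the abundant genes Eif4a1, Eif4g2 and Eif5a and not the typical gene of these groups. The Eif2 genes summed to 529 and 511 CPM and to 518 and 567 CPM, in opposite directions. In UMIs per cell, the sum of all members went from 81.8 to 120 in Experiment 1 and from 70.9 to 132 in Experiment 2.

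**Figure D3:**
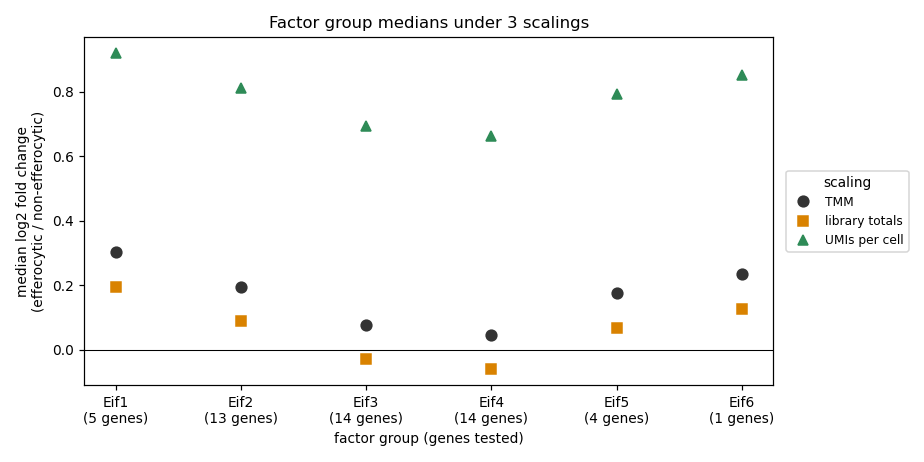
Median log2 fold change (y axis) of the tested genes of each factor group (x axis) when libraries were scaled by TMM (circles), by library totals (squares) or by the number of cells, that is as UMIs per cell (triangles). A change of scale moves all genes by about the same amount, so the order of the groups is the same by construction. The medians of the Eif3 and Eif4 groups are above 0 under TMM (0.078 and 0.046) and below 0 on library totals (-0.030 and -0.061).

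Within an experiment each group had 1 library, so these values carry no test. The 15 genes that rose had a positive log2 ratio of CPM in both experiments, with a median of 0.23 in Experiment 1 and 0.45 in Experiment 2. For 14 of the 15 the ratio was larger in Experiment 2, the exception being Eif1ax (0.23 and 0.21). The 3 genes that fell had ratios between -0.48 and -0.33 in both experiments. Over all 51 members tested the ratio was larger in Experiment 2 for 42, beside 64.6% of all genes tested and 68.1% of the abundant genes. CPM of the groups did not overlap for 12 of the 15 genes that rose and for all 3 that fell, but also for 12 of the 33 that did not pass the test, 11 of which were lower in the efferocytic libraries. Over all genes tested 22.2% were higher without overlap and 44.7% lower without overlap on the CPM scale.

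A set of 12 members had ratios of opposite sign in the experiments, and 0 of them passed the test (edgeR; 1, Eif2b3, at an unadjusted p under 0.05, and 0 by DESeq2). They were Eif1ad, Eif2b3, Eif3c, Eif3d, Eif3g, Eif3j2, Eif3l, Eif4enif1, Eif4g3, Eif4h, Eif5 and Eif5a2. Opposite ratios were seen for 19.5% of all genes tested, and such ratios make a call under TMM unlikely. As UMIs per cell 11 of the 12 rose and 0 fell, where 49.9% of all genes rose and 4.23% fell.

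**Figure D4:**
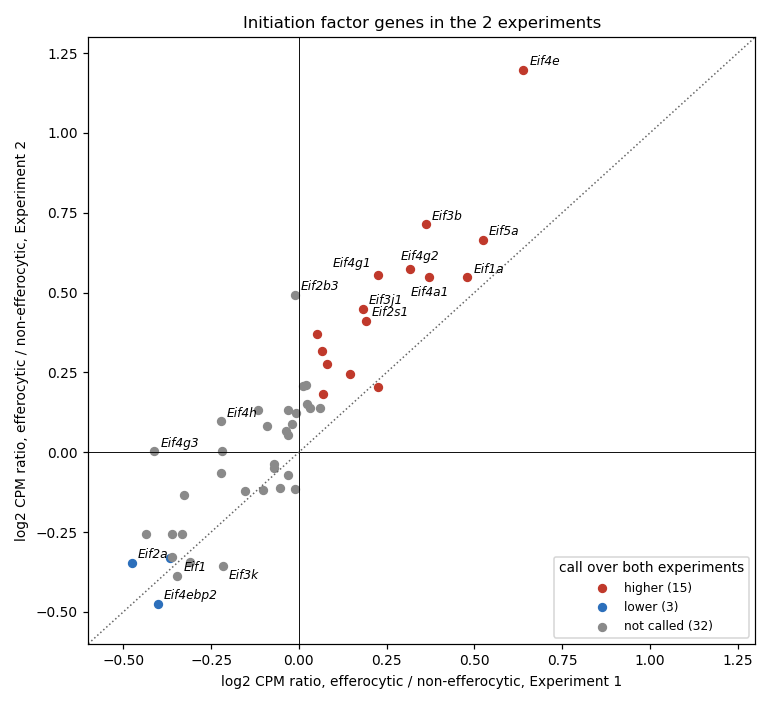
Log2 ratio of CPM (efferocytic over non-efferocytic) in Experiment 1 (x axis) and Experiment 2 (y axis) for 50 initiation factor genes, without the near copy Eif3j2, coloured by the call over both experiments. The dotted line marks equal ratios, and 14 of the 15 genes that rose (red) lie above it, Eif4e farthest out at 0.64 and 1.20.

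Since efferocytic cells carried more UMIs, levels were also set side by side in cells of like depth. In each of 4 ranges of UMIs per cell (1000 to under 5000, 5000 to under 10000, 10000 to under 20000, and 20000 and over), the median log2 ratio of the 15 genes that rose was positive, from 0.15 to 0.27 in Experiment 1 and from 0.25 to 0.52 in Experiment 2. It was smallest in the cells of 20000 UMIs and over in both experiments. Of the 15 genes that rose, 12 to 14 had a positive ratio in a range of Experiment 1 and 13 to 15 in Experiment 2. The 3 genes that fell had negative ratios in every range of both experiments. Both sets were called from the same cells, so their signs here are no separate test. The members not called had medians from -0.24 to -0.10 in Experiment 1 and from -0.023 to 0.030 in Experiment 2. Eif4e in cells of 1000 to under 5000 UMIs was at 37.0 and 85.6 CPM in Experiment 1 and at 39.9 and 101 CPM in Experiment 2. In cells of 20000 UMIs and over it was at 49.1 and 64.4 CPM and at 51.8 and 96.8 CPM, so the difference remained in the deepest cells and was smaller there. Eif1 was lower in efferocytic cells in all 4 ranges, from 1261 and 1120 CPM in the shallowest cells of Experiment 1 to 1522 and 1154 CPM in the deepest.

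**Figure D5:**
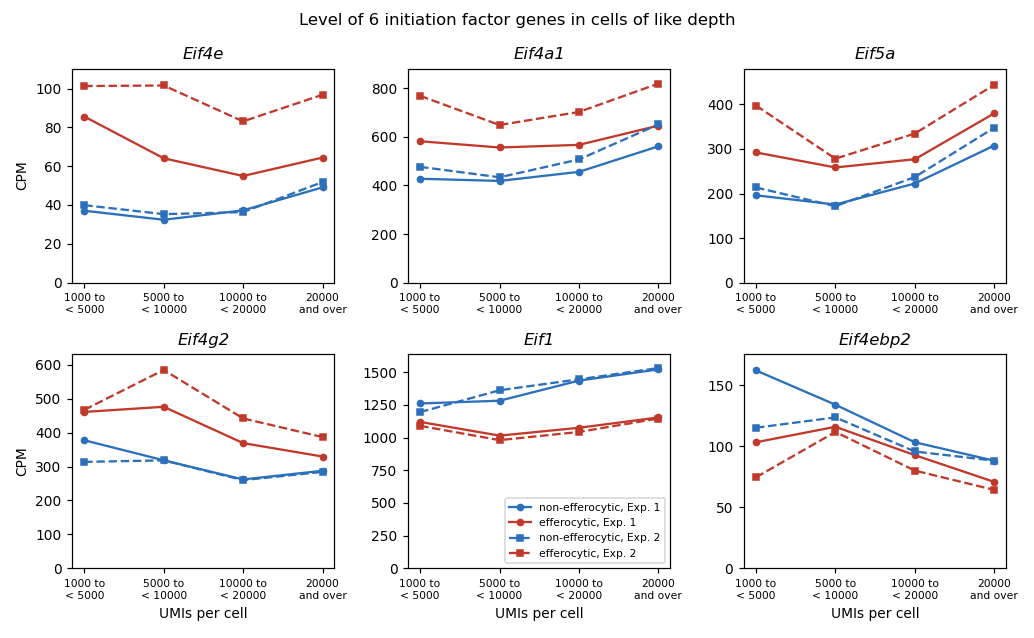
Level (CPM, y axes from 0) of 6 initiation factor genes in cells of 4 ranges of UMIs per cell (x axes), for non-efferocytic (blue) and efferocytic (red) libraries of Experiment 1 (circles, solid lines) and Experiment 2 (squares, dashed lines). Within each experiment the efferocytic line lies above the non-efferocytic line in all ranges for Eif4e, Eif4a1, Eif5a and Eif4g2, and below it for Eif1 and Eif4ebp2.

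In the fit on cells of 10000 to 20000 UMIs alone, 9 members rose and 6 fell, namely Eif1, Eif2a, Eif2ak1, Eif3f, Eif3h and Eif3k, where 16.6% of all genes rose and 15.9% fell, close to the shares of the members, 17.6% and 11.8%. The member median was 0.0071 in these cells. Cells with at least 2 macrophage markers and none of the neutrophil, fibroblast, lymphocyte and dendritic cell markers gave 13 members that rose and 6 that fell, where 18.5% of all genes rose and 18.2% fell, with a member median of 0.074. Eif1a, Eif3b, Eif3j1, Eif4a1, Eif4e, Eif4g1, Eif4g2 and Eif5a were among the 13. This choice removed cells unequally. It kept 6126 of 8280 non-efferocytic and 4891 of 6695 efferocytic cells in Experiment 1, and 5684 of 13411 and 6554 of 8408 in Experiment 2. Cells without a UMI of the 7 cycling markers gave 12 and 4, where 16.1% and 15.8% of all genes were called, with a member median of 0.061. The sum of these markers was 184 and 175 CPM in non-efferocytic libraries against 123 and 168 CPM. Ube2c (72.3 and 64.6 against 32.5 and 37.4 CPM) and Birc5 were lower in both experiments. Ccnb1 and Cdk1 were higher in both, and Mki67, Top2a and Tpx2 were lower in Experiment 1 and higher in Experiment 2. A cycling marker UMI was in 49.0% and 44.0% of non-efferocytic against 45.4% and 51.4% of efferocytic cells. Without cells holding epithelial and tumor cell markers the counts were 14 and 3 (all genes 19.2% and 18.2%), and they were also 14 and 3 (all genes 19.5% and 18.9%) without the cell barcodes shared between libraries, a choice made after seeing the data. The marker choice kept 8267 of 8280 non-efferocytic and 6683 of 6695 efferocytic cells in Experiment 1, and 13385 of 13411 and 8390 of 8408 in Experiment 2. So few cells left that the counts could hardly move, and they do not bear on RM1 cells. RNA of engulfed RM1 cells comes from the same species and its share in the initiation factor counts was not tested.

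Genes that work with the initiation factors were counted from lists, which were chosen with earlier results of these data known. Of 18 other initiation genes (re-initiation and recycling factors, poly(A)-binding proteins and their partners, eIF5 mimics, the enzymes that make hypusine on eIF5A, release factors, the helicases Ddx3x and Dhx29, and the argonaute gene Ago2), 11 rose and 0 fell (edgeR; the same counts at an unadjusted p under 0.05, and 10 and 0 by DESeq2), with a median log2 fold change of 0.38, where 19.9% of all genes rose and 19.0% fell. On library totals 9 of these genes rose and 3 fell, so the count of 0 rests on the scale, and as UMIs per cell 14 rose and 0 fell. Denr and Ago2 of this list are named in the paper among translational initiation genes upregulated in the efferocytic cells of these libraries. The counts are therefore no separate support for a change in such genes. Ago2, once named Eif2c2, had the largest rise at 1.28 ± 0.083 (edgeR, adjusted p = 6.9e-05), followed by the eIF5 mimic Bzw2 at 0.60 ± 0.13 (edgeR, adjusted p = 0.00780).

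Of 20 genes that signal to the initiation factors, 5 rose and 4 fell, near the 19.9% and 19.0% of all genes, with a median of 0.11. The counts were 4 and 4 on library totals, 14 and 0 as UMIs per cell and 4 and 2 by DESeq2. Dnajc3, an inhibitor of eIF2α kinases, rose by 0.80 ± 0.078 (edgeR, adjusted p = 0.000297) and Impact, an inhibitor of Eif2ak4 activation, by 0.72 ± 0.079 (edgeR, adjusted p = 0.000488). Pdcd4, which encodes an inhibitor of the eIF4A helicase, was at 41.3 and 21.5 CPM in Experiment 1 and at 38.4 and 17.2 CPM in Experiment 2 and fell by 0.94 on the log2 scale (standard error 0.092; edgeR, adjusted p = 0.000298). Ppp1r15a, the subunit that directs phosphatase to eIF2α, fell by 0.60 on the log2 scale (standard error 0.10; edgeR, adjusted p = 0.00350).

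Of 15 genes of the ATF4 branch (Atf4, whose mRNA is translated more when eIF2α is phosphorylated, related stress factors and known ATF4 targets), 4 rose and 5 fell, with a median of 0.14, where 19.9% of all genes rose and 19.0% fell. The counts were 2 and 7 on library totals, 8 and 0 as UMIs per cell and 3 and 3 by DESeq2. Asns (asparagine synthetase) rose by 0.90 ± 0.13 (edgeR, adjusted p = 0.00147) and Phgdh, an enzyme of serine synthesis, by 0.76 ± 0.12 (edgeR, adjusted p = 0.00251). Sesn2, a stress-induced regulator of mTORC1, fell by 0.87 on the log2 scale (standard error 0.095; edgeR, adjusted p = 0.000469), and Ppp1r15a, which belongs to this list as well, is given before. The branch had genes in both directions under TMM, on library totals and by DESeq2. Of 10 genes with elongation factor symbols (Eef), 3 rose and 1 fell, where 19.9% of all genes rose and 19.0% fell, with a median of 0.013. The counts were also 3 and 1 on library totals and by DESeq2, and 8 and 0 as UMIs per cell. Eef1e1, a multi-tRNA synthetase scaffold protein, rose by 0.73 ± 0.076 (edgeR, adjusted p = 0.000395) and Eef2kmt, a methyltransferase of eEF2, by 0.48 ± 0.080 (edgeR, adjusted p = 0.00289). Eef2k, the kinase that inhibits eEF2, fell by 0.58 on the log2 scale (standard error 0.091; edgeR, adjusted p = 0.00219). Eef1e1, Eef2kmt and Eef2k do not encode elongation factors themselves, and the remaining gene that rose was Eef1g.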

How the data were processed

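The data were 4 single-cell RNA sequencing libraries (10X Genomics 3′ kit) of sorted BM macrophages. The authors mapped reads to mm10 with Cell Ranger and STAR and deposited UMI counts for each gene and barcode as raw values, unnormalized and before cell filters. The submitters' notes name Cell Ranger 3.0.0 and Seurat 3.1, while the file headers name Cell Ranger 3.0.0 for Experiment 1 and 3.1.0 for Experiment 2. The version of the gene annotation is not given in the sources used here.

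Barcodes under 200 genes or 1000 UMIs, or over 10% mitochondrial UMIs, were left out. The study used these limits after Cell Ranger had called cells, a step not in the unfiltered tables, so each library held more cells here (6695 to 13411) than the study kept. A calling rule like that of Cell Ranger left 6158 to 10615 cells per library. With it 13 members rose and 3 fell, where 18.9% of all genes rose and 18.1% fell. Doublets were kept, with the 5% of cells of most UMIs left out in an alternative. Sums of counts per library were used, since cells are not replicates, and these were tested with edgeR 4.0.16 in R 4.3.3 (quasi-likelihood test, TMM, filterByExpr, experiment as a block, Benjamini-Hochberg adjustment over 13869 genes, threshold 0.05). DESeq2 1.42.0 was an alternative. Same-numbered libraries share the experiment named in the labels, and their deviations from the group means correlated at 0.800 across 7097 genes. Standard errors were derived from the log2 fold change and its F statistic (ratio of the former to the root of the latter). Ratios within an experiment have exact (Clopper-Pearson) 95% intervals, which cover counting error alone. The fit was also run on simulated counts, and no result given here rests on that run.

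Other alternatives were library totals, UMIs per cell, no filter or at least 10 CPM, the Cell Ranger calling rule, at most 5% mitochondrial UMIs, at least 5000 or 10000 to 20000 UMIs per cell, 10% of UMIs removed as free RNA, macrophage marker cells, cells without cycling or tumor cell markers, shared barcodes left out, and each library left out. Promoter sequences were taken from RefSeq (GRCm38.p6), and gene positions and transcript ends from GENCODE M21. Values in all libraries are given for called members, the kinases, the cap-binding, 4E-binding and scaffold genes, and others that a result turns on, and from each further list the 2 largest called changes in each direction. The members and lists were chosen with earlier results of these data known. Python 3.11.15 was used for sums and figures.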

Additional observations from a re-analysis of the deposited data

Results flagged for a closer look

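For 3 initiation factor genes the efferocytic library lay below the non-efferocytic library in Experiment 1 and above it in Experiment 2, each time beyond the exact counting interval. The log2 ratio of CPM of Eif3d, the cap-binding eIF3 subunit, was -0.091 in Experiment 1 and 0.081 in Experiment 2. That of the helicase cofactor Eif4h was -0.22 and 0.097, and that of Eif5, the GTPase-activating factor, -0.12 and 0.13. The difference between the experiments was not tested, since each holds 1 library per group, and the counting interval leaves out the spread between libraries. Ratios of CPM were larger in Experiment 2 for 64.6% of all genes tested.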

How the results depend on the processing

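Without the replicate block 8 members rose and 1 fell (Eif2a), where 9.27% and 7.74% of all genes were called, and the 8 were those that passed under every alternative with 4 libraries. Scaled to library totals, 9 rose and 9 fell, with medians of 0.016 over all members and, from Eif1 to Eif6, of 0.20, 0.088, -0.030, -0.061, 0.069 and 0.13. As UMIs per cell, 40 rose and 0 fell, with medians of 0.74 and 0.92, 0.81, 0.70, 0.66, 0.79 and 0.85. Every member that was negative under TMM was positive on this scale. Among those called on either scale, these were Eif1 (0.36), Eif2a (0.31), Eif2ak1 (0.38), Eif3e (0.58), Eif3k (0.44), Eif3l (0.62), Eif4ebp1 (0.62) and Eif4ebp2 (0.29). Among those called on neither, they were Eif2b2 (0.59), Eif2d (0.43), Eif3f (0.38), Eif3h (0.40), Eif4a2 (0.42), Eif4b (0.38), Eif4e3 (0.49) and Eif4g3 (0.52). With genes of at least 10 CPM alone, 9 rose and 8 fell, where 20.8% and 21.9% of all genes were called, with a median of 0.021 and, from Eif1 to Eif6, of 0.21, 0.029, -0.043, -0.050, 0.097 and 0.14. Cells of 10000 to 20000 UMIs gave 9 and 6, a median of 0.0071 and, from Eif1 to Eif6, medians of 0.10, 0.099, -0.090, -0.021, 0.076 and 0.037. Without the deepest 5% of cells 14 members rose and 5 fell, where 19.1% and 17.7% of all genes were called. Macrophage marker cells gave 13 and 6, where 18.5% and 18.2% of all genes were called. Removal of free RNA gave 9 and 1, where 9.98% and 7.65% of all genes were called. The cause of these shifts was not tested. Under the remaining alternatives with 4 libraries the counts were within 1.5 times those reported, while the member median was 0.061 in cells without cycling markers and 0.074 in macrophage marker cells.

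Each library was left out without the block, because the block would leave no degrees of freedom, and a lone library is then assumed to vary like the other group. Fewer members were called in each of these fits, and fewer of all genes. Without either non-efferocytic library 0 rose and 0 fell (edgeR; over all genes tested 0 rose and 2 fell without that of Experiment 1 and 0 and 0 without that of Experiment 2, so these fits called almost no gene; 8 members at an unadjusted p under 0.05 without that of Experiment 1 and 12 without that of Experiment 2). Without the efferocytic library of Experiment 1 the counts were 11 and 1, and without that of Experiment 2 they were 3 (Eif3b, Eif4e and Eif5a) and 0. Medians ranged from 0.077 to 0.17 over all members, 0.17 to 0.39 for Eif1, 0.11 to 0.15 for Eif2, 0.043 to 0.12 for Eif3, 0.032 to 0.099 for Eif4, 0.14 to 0.23 for Eif5 and 0.11 to 0.36 for Eif6. Depth limited the members under 1 CPM (Eif2c5, Eif3j2, Eif4e1b and Eif4ebp3).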
